A study of Homo sapiens with 32 samples.

Results

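The list described here holds 90 genes whose RNA was more abundant in Ishikawa-S33Y than in the endometrial cancer cell line Ishikawa, from which it derives, when both were given vehicle only. Levels were expressed as counts per 1000000 reads (CPM) and compared as log2(CPM + 1). A gene entered the list if the Ishikawa-S33Y vehicle mean exceeded the Ishikawa vehicle mean by at least 2.5, a 5.66-fold difference in CPM + 1, and was itself at least 3, which is 7 CPM. Of the 35238 genes in the deposited table, 92 met both conditions. The histone gene HIST2H4A and the protease gene MMP2 were then dropped as the rule demands, which left the 90 members. In Ishikawa on vehicle, 34 of them also had a mean level of at least 3, and 12 were below 1. All 90 were among the 17011 genes that were tested; they passed the filter on low values through their level in Ishikawa-S33Y, which the rule itself had set.

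The study profiled 4 human endometrial cancer cell lines by bulk RNA sequencing. Ishikawa is labelled CTNNB1-wildtype, and Ishikawa-S33Y, SNGM and HEC265 are labelled CTNNB1-mutated; CTNNB1 encodes beta-catenin. Each line received vehicle (0.1% DMSO), paclitaxel, SM08502, or both drugs together (the combination) for 24 h, with 2 libraries per group, 16 groups and 32 libraries. Paclitaxel, a taxane, blocks dividing cells by holding their microtubules stable. SM08502 is an inhibitor of CLK kinases, enzymes that act on proteins of the splicing machinery. Ishikawa received 11 nM paclitaxel and 80 nM SM08502. Ishikawa-S33Y received 6 nM and 85 nM, SNGM 11.7 nM and 350.7 nM, and HEC265 5.6 nM and 149 nM, so doses differed between lines. The labels do not say how the mutant allele was introduced into Ishikawa-S33Y, nor whether that line is 1 clone. Ishikawa libraries were made from 350 ng of RNA and the others from 500 ng, so the line, the RNA input and the dose cannot be told apart. Cells were plated in duplicate, and p-values therefore measure only the spread between these samples, which may be technical.

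Beta-catenin joins cadherins at cell contacts and carries the Wnt signal into the nucleus, where it binds DNA through the TCF and LEF factors. In the absence of a Wnt ligand it is marked for destruction by phosphorylation near its amino terminus, and mutations that remove the marked residues keep the protein stable. Such mutations recur in endometrial cancers of the endometrioid type. Endometrial glands are epithelial, and fibrillar collagens are made mainly by the stroma around them.

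The start regions of a few members are shown first, because beta-catenin acts through TCF and LEF factors. RefSeq promoter sequences (GRCh38.p14) were at hand for 58 members. The 250 bases before the annotated start were searched on both strands for short forms of the TCF and LEF motif, the letters CTTTG followed by AA, by AT, by TA or by TT. A match was found in 7 of 58 members (12.1%) and in 1011 of 12466 tested genes (8.11%). The members with a match were GFRA1, MYCN, CYP26B1, ANGPTL1, SLC16A3, COL26A1 and KCNJ16. In the 4 sequences below, written 5′ to 3′ towards the start, capitals mark the match. They lie at chr10:116274706-116274955 (minus strand, before GFRA1), chr2:15940300-15940549 (plus strand, before MYCN), chr2:72147863-72148112 (minus strand, before CYP26B1) and chr17:82228185-82228434 (plus strand, SLC16A3). The SLC16A3 window belongs to a start that lies inside the annotated gene.
GFRA1: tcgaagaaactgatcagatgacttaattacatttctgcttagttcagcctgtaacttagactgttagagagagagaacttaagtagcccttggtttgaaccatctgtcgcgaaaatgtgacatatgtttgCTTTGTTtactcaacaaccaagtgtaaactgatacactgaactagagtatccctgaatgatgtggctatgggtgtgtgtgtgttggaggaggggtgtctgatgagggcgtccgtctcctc
MYCN: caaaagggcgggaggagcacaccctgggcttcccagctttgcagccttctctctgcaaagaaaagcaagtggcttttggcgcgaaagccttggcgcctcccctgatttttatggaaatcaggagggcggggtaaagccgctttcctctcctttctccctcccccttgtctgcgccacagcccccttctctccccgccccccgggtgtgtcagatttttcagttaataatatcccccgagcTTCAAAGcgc
CYP26B1: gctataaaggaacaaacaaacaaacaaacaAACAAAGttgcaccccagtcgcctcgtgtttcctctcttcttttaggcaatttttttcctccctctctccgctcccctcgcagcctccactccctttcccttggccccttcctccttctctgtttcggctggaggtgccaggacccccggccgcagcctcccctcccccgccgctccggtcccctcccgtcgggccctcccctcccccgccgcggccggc
SLC16A3: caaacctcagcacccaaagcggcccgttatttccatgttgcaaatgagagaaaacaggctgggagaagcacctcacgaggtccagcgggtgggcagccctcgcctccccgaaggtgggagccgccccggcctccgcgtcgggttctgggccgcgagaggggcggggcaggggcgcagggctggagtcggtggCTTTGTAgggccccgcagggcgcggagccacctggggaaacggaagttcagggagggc
The match begins 120 bases before the start in GFRA1, 10 in MYCN, 220 in CYP26B1 and 58 in SLC16A3. The same windows held ACGTG, the core of the hypoxia response element, in 10 of 58 members (17.2%) against 22.4% of tested genes, and the E-box CACGTG, which contains that core, in 5 of 58 (8.62%) against 8.45%. The median GC content was 68.2% for the members and 64.4% for tested genes. A match says only that these letters stand in the window.

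Depth was 13 to 34.1 M reads (M, 1000000) in 30 libraries and 2.99 and 1.61 M reads in replicate 2 of the Ishikawa-S33Y and SNGM combination groups. All 10 epithelial markers examined reached 1 CPM in at least 1 library of Ishikawa and of Ishikawa-S33Y. In SNGM, SOX17 and PGR were below 1 CPM in every library, and in HEC265 ESR1 and PGR were. Of the 8 stromal markers, LUM and PDGFRB stayed below 1 CPM in every Ishikawa-S33Y library. The summed stromal level was 716 to 1168 CPM there and 33 to 199 CPM in Ishikawa. On vehicle most of this sum was COL1A1, itself a member, with a mean of 1145 CPM in Ishikawa-S33Y and 134 CPM in Ishikawa. The vehicle means of COL1A2, COL3A1, DCN, PDGFRA and THY1 were 0.435 to 4.11 CPM in Ishikawa-S33Y and 0.476 to 2.98 CPM in Ishikawa. In Ishikawa-S33Y the 5 endothelial markers summed to 5.35 to 11.1 CPM, the 6 leukocyte markers to 3.40 to 6.63 CPM, the 5 muscle markers to 9.59 to 13.8 CPM and the 7 neural markers to 32.1 to 82.4 CPM, with STMN2, ELAVL4, NEFL, DES and MYOG below 1 CPM. Long transcripts, a sign of RNA quality, were low against ribosomal protein genes in Ishikawa. The score for this, the mean log2 level of 51 long genes minus that of 83 ribosomal protein genes, was -3.05 to -1.53 in Ishikawa, -1.80 to -1.25 in Ishikawa-S33Y, -1.20 to -0.82 in HEC265 and -0.82 to -0.13 in SNGM.

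The vehicle values chose the list and are given as a description. The 90 members included 17 surface receptors and membrane proteins, 16 matrix genes and 13 genes of channels, transport and neurotransmission. Their median level was 2.44 in Ishikawa and 5.49 in Ishikawa-S33Y on the log2 scale, and the difference ranged from 2.5 for XKR4 to 4.83 for NOS1, with a median of 2.86. Together they took 0.146% and 0.160% of the reads of the Ishikawa vehicle libraries and 1.21% and 1.29% of those of Ishikawa-S33Y. NOS1, the neuronal nitric oxide synthase, had 0.987 and 1.54 CPM in Ishikawa and 65.8 and 59.8 CPM in Ishikawa-S33Y. MGAT3, which adds the bisecting sugar to N-glycans, had 0.987 and 0.998 CPM against 40.8 and 36.2 CPM. These 2 genes and FLG, SCARA3, HMCN1, LOXL4, COL6A1 and WNT2B showed the 8 largest vehicle differences.

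The list ends at its thresholds without a gap. Just inside the threshold on the difference were XKR4 (2.5), GPRC5C (2.52) and KCNJ16 (2.52), and just outside it FLNC, FOXF2 and FAM189A1 (2.49, 2.49 and 2.47). Just inside the threshold on the level were SFRP5 (3.08), KLK1 (3.11) and NIM1K (3.16), and outside it PRTN3 (2.65), 1 of the 2 genes that met only the condition on the difference. With the difference set at 2 the list would hold 214 genes, and with 3 it would hold 34.

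**Figure D1:**
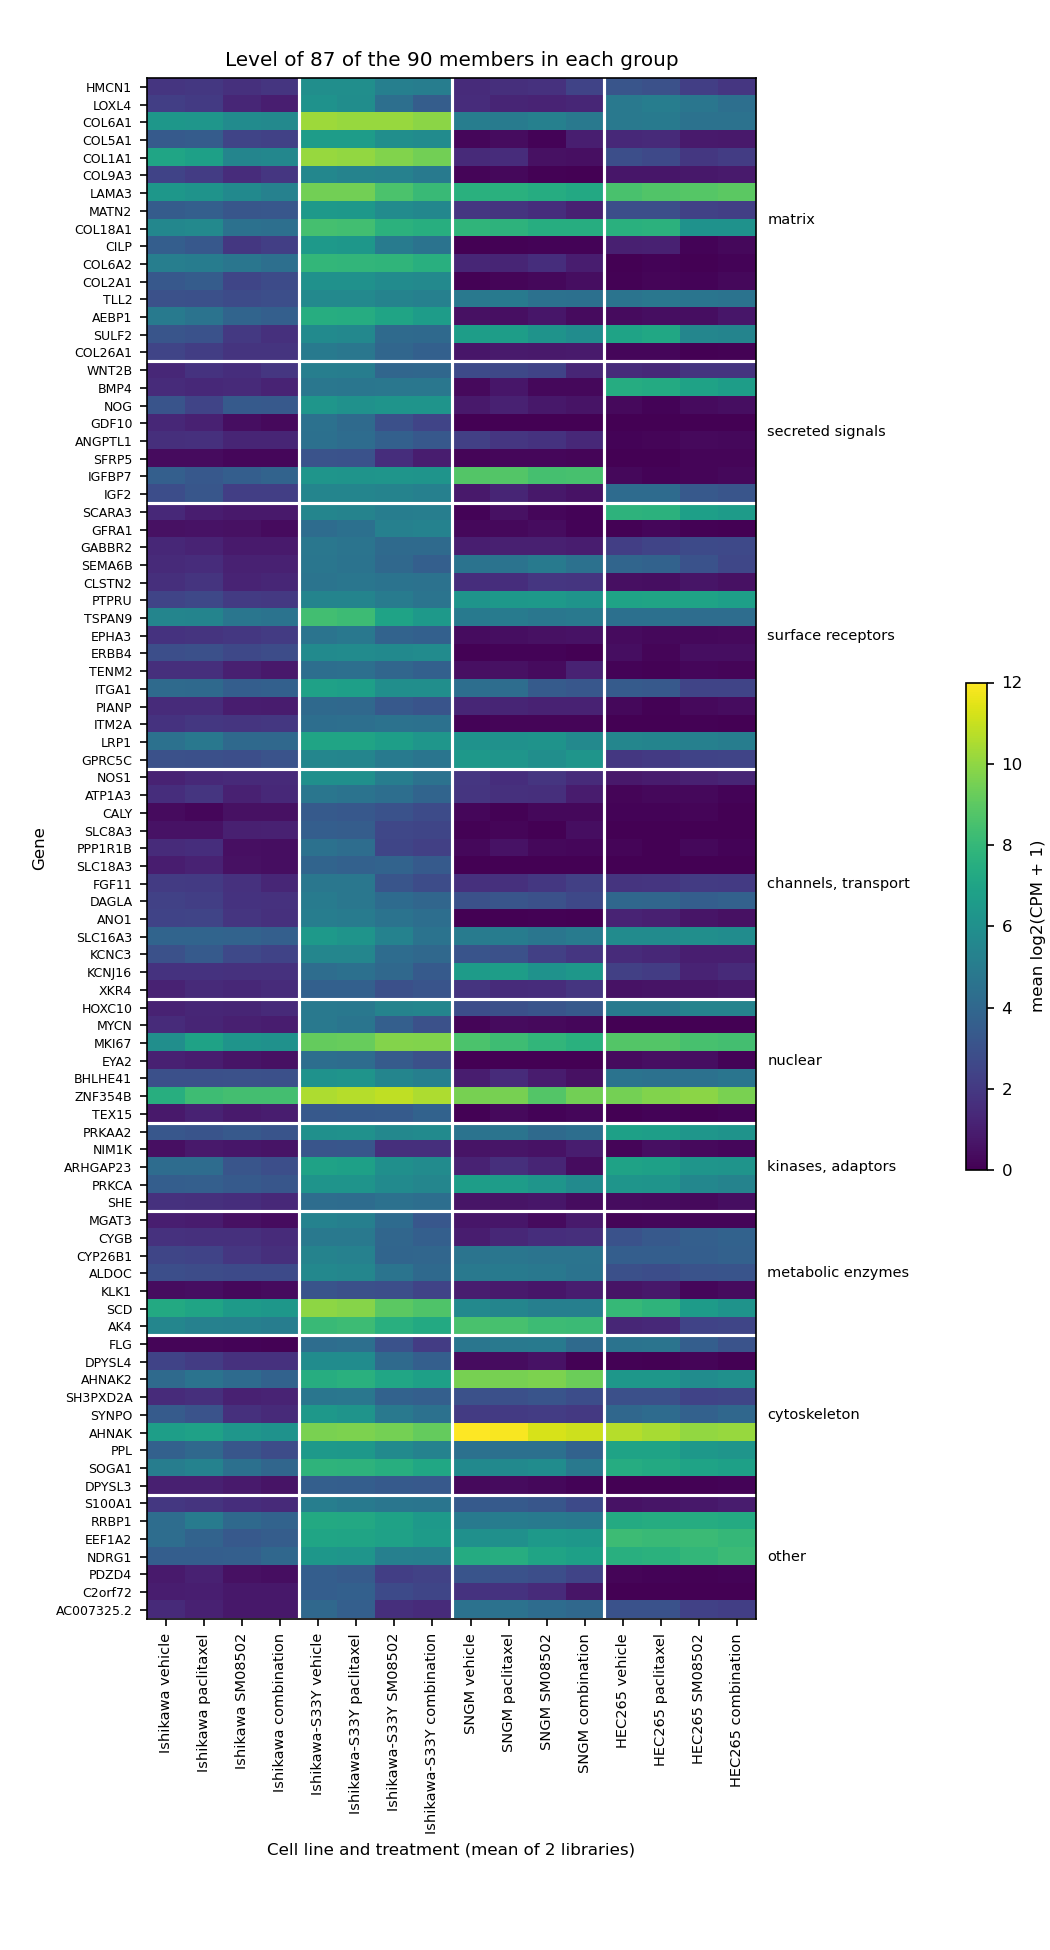
Mean log2(CPM + 1) of 2 libraries for 87 of the 90 members (rows, grouped by role) in the 16 groups (columns, 4 treatments in each of 4 lines); brighter colours are higher levels. Each member shown is brighter in Ishikawa-S33Y than in Ishikawa with the same treatment, by construction for vehicle, while SNGM and HEC265 are bright for some members and near 0 for others.

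The difference between Ishikawa-S33Y and Ishikawa recurred in libraries that the rule had not used. Those libraries come from the same lines whose difference chose the members, so a recurrence was likely from the start. The limma spread was also shared with the vehicle libraries. Shares of tested genes are therefore given for scale, not as a test. With paclitaxel, all 90 members were higher in Ishikawa-S33Y (limma, adjusted p at most 0.00186), against 20.5% of all tested genes, and their median difference was 2.78. With SM08502 again all 90 were higher, against 27.5% of tested genes, with a median of 2.63 and a smallest difference of 0.82. With the combination all 90 were higher, against 27.1%, with a median of 2.44 and a smallest difference of 0.69 (limma, largest adjusted p = 0.0237). In each of these 3 treatments both Ishikawa-S33Y libraries lay above both Ishikawa libraries for all 90 members, which held for 29.6%, 41.3% and 38.0% of tested genes. A difference of at least 2.5 remained in 74 members under paclitaxel, in 53 under SM08502 and in 43 when both drugs were given. Between paclitaxel and vehicle in Ishikawa-S33Y, limma called none of the members (0%) and no other tested gene. At an unadjusted p under 0.05 that comparison held 1 member and 122 genes.

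The paclitaxel libraries of Ishikawa disagreed with each other. Replicate 1 had a length score of -1.53, close to that of Ishikawa-S33Y, and a member median of 2.75, while replicate 2 had -3.05 and 2.01; the paclitaxel libraries of Ishikawa-S33Y had member medians of 5.44 and 5.42. With the length score as a covariate, 89, 87 and 87 members were called higher in Ishikawa-S33Y with paclitaxel, SM08502 and the combination. Of the 17011 tested genes, 2175, 2501 and 2684 were. In each of these treatments both Ishikawa scores lay below both Ishikawa-S33Y scores. With SM08502 they were -2.17 and -2.98 against -1.44 and -1.47. The adjustment therefore extrapolates between the lines and cannot tell RNA quality apart from the line.

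**Figure D2:**
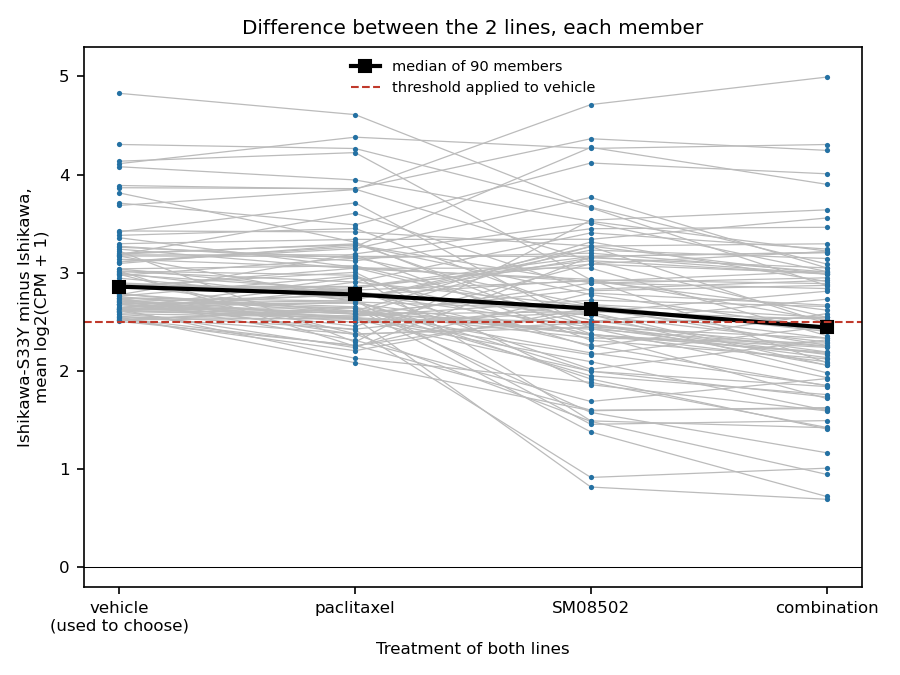
Difference of means between Ishikawa-S33Y and Ishikawa on log2(CPM + 1) for each member (thin lines) under the 4 treatments, with the median (black squares) and the threshold of 2.5 used on vehicle (dashed). All 90 members stay above 0 with every treatment, and the median goes from 2.86 on vehicle to 2.44 with the combination.

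SNGM and HEC265, which are also CTNNB1-mutated, did not share the list as a whole. On vehicle the member median was 1.86 in SNGM and 2.25 in HEC265, near that of Ishikawa. With paclitaxel, limma called 32 members higher and 36 lower in SNGM than in Ishikawa, where 26.2% of tested genes were higher and 37.9% lower, and the median difference was -0.16. In HEC265 it called 36 higher and 42 lower, against 26.6% and 38.1%, with a median of -0.37. With median re-centring of the libraries, the counts were 33 higher and 32 lower in SNGM and 40 and 38 in HEC265. All 17011 tested genes gave 5322 and 5546, and 5458 and 5398. With quantile normalization the member counts were 37 and 27, and 42 and 30, and those of all tested genes 5750 and 5691, and 5940 and 5278. The median of all tested genes went from -0.14 to -0.01 and 0.02 in SNGM and from -0.18 to -0.03 and 0.09 in HEC265 with these 2 scalings, and the member medians turned to 0.22 and 0.40 with the second. With the length score as a covariate, 25 members were higher and 45 lower in SNGM (median -0.73), and 30 and 43 in HEC265 (median -0.60). Of the 17011 tested genes, 2956 were then higher and 6574 lower in SNGM (median -0.32), and 3439 and 6575 in HEC265 (median -0.28). The scores of Ishikawa do not overlap those of SNGM or HEC265, so this adjustment extrapolates between lines. Without Ishikawa paclitaxel replicate 1 the SNGM median was 0.12. Both comparisons use the same Ishikawa libraries.

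On vehicle, 29 members reached a level of 3 in both SNGM and HEC265, 8 in SNGM alone, 11 in HEC265 alone and 42 in neither; 25 were below 1 in both. Some members split the 2 lines sharply. IGFBP7, a secreted binder of insulin-like growth factors, had 482 and 393 CPM in SNGM and 0.134 and 0.27 CPM in HEC265 on vehicle. BMP4, a bone morphogenetic protein, had 0.255 and 0.205 CPM in SNGM and 178 and 163 CPM in HEC265. No read of SLC18A3 or GDF10 was counted in any vehicle library of either line, which allows up to 0.0879 to 0.134 CPM at 3 reads per library.

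**Figure D3:**
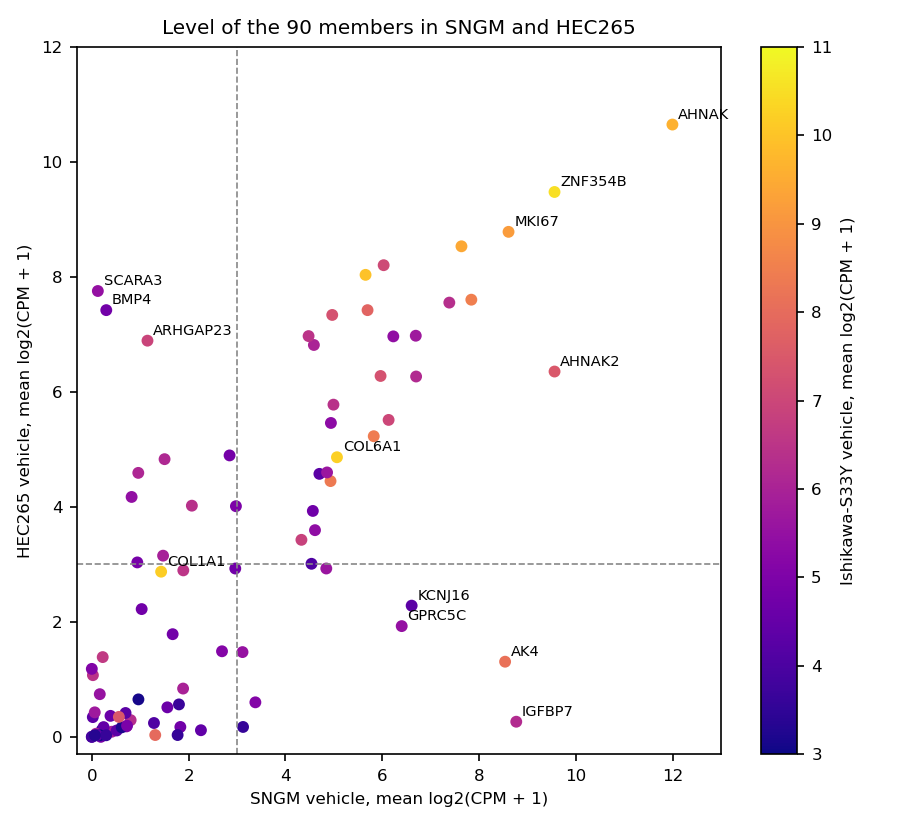
Vehicle level of each member in SNGM (horizontal) and HEC265 (vertical), mean log2(CPM + 1) of 2 libraries, coloured by its level in Ishikawa-S33Y; dashed lines mark a level of 3. 42 members lie in the lower left corner, 29 in the upper right, and SCARA3, BMP4, IGFBP7 and AK4 are high in 1 of the 2 lines.

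Many members were lower with SM08502 in Ishikawa-S33Y. Because vehicle libraries chose the members, the drug was first read on top of paclitaxel, the combination against paclitaxel alone. Limma called 50 members lower and 2 higher, against 17.4% and 22.1% of all tested genes; the 2 were GFRA1 and HOXC10. With a pseudocount of 0.1 in place of 1, 38 were lower and 0 higher, where 2588 and 3237 of the 17011 tested genes were. The members' median change was -0.85 while that of all tested genes was 0.06. The length score moved with the drug: it was -1.80 and -1.48 with the combination and -1.25 and -1.29 with paclitaxel, and the 4 Ishikawa-S33Y libraries given SM08502 lay below the 4 not given it. With the score as a covariate, 54 members and 3297 of the 17011 tested genes were lower, and the members' median change was -0.67. The part of the score in the change was not tested. Of the 50 members called lower, 35 fell by at least 1 on the log2 scale. The share of tested genes that fell as far was not counted. The rule set the members' level in this line, which leaves them more room to fall on this scale than low genes have. Both combination libraries lay below both paclitaxel libraries for 79 members, against 31.1% of tested genes. Among genes with a paclitaxel level of at least 3, 49 of 89 members were lower, against 22.1% of such genes. The members took 1.19% and 1.24% of reads with paclitaxel and 0.847% and 0.808% with the combination.

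Against vehicle, which shares the libraries of the rule, SM08502 alone lowered 41 members and raised 1 in Ishikawa-S33Y, with a median change of -0.70, where 10.6% of tested genes were lower and 18.5% higher. The count of 41 was 25 without SM08502 replicate 2 and 28 to 33 without 1 of the other 3 libraries. Endometrial epithelial markers moved too: 9 of 10 fell between paclitaxel and the combination (median -0.93), and 6 fell between vehicle and SM08502. Their part in the members' change was not tested. In bulk RNA, fewer cells of a type and less RNA per cell cannot be told apart. Without the shallow combination replicate 2 the count of lower members was 47, and without 1 library at a time it was 40 to 47. Without both shallow libraries of the study, an alternative chosen after seeing the data, it was 53.

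**Figure D4:**
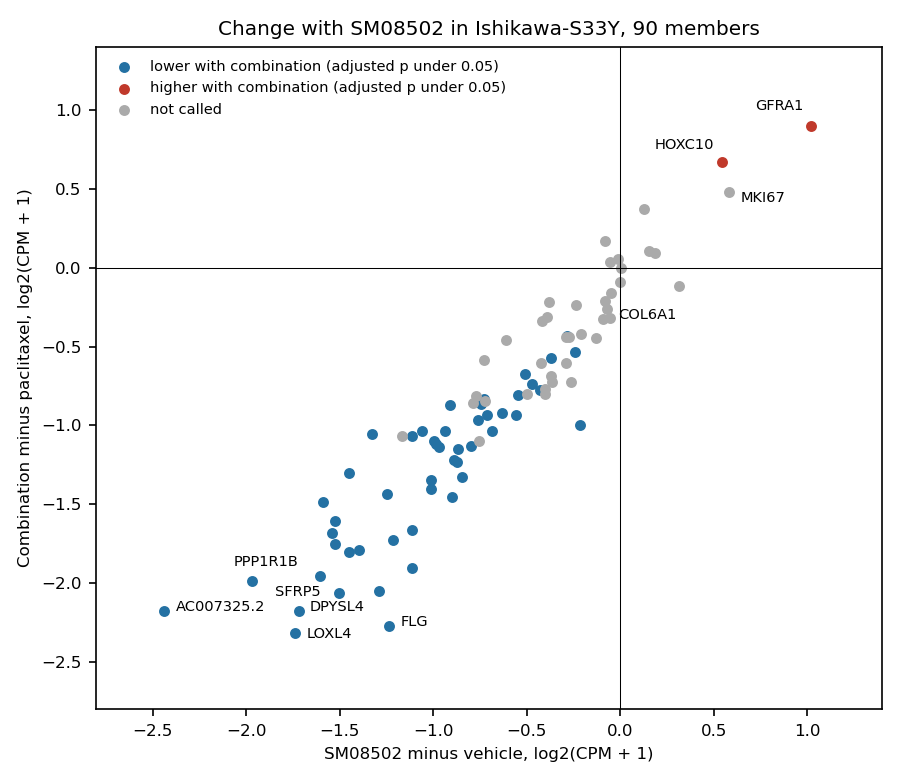
Change of each member in Ishikawa-S33Y with SM08502 alone against vehicle (horizontal) and with the combination against paclitaxel (vertical), both on log2(CPM + 1); colour shows the call for the combination. Most points lie below 0 on both axes, GFRA1 and HOXC10 above 0 on both; the horizontal axis uses the vehicle libraries that chose the list.

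The same comparison was made in the other lines, at other doses. Whether the change differed from that in Ishikawa-S33Y was not tested for Ishikawa or SNGM. When the compared line alone set the spread, 0 members were lower in Ishikawa, 1 in SNGM, 35 in HEC265 and 70 in Ishikawa-S33Y. Of the 17011 tested genes, 7, 95, 2892 and 3696 were lower there, in the same order. These counts therefore rest on how the spread is estimated. With the spread shared by all groups, limma called in Ishikawa 15 lower and 3 higher between combination and paclitaxel, against 6.14% and 8.30% of tested genes. That count was 2 without Ishikawa paclitaxel replicate 1, 52 without replicate 2, 9 and 8 without combination replicates 1 and 2, and 23 without the 2 shallow libraries, which belong to other lines. In SNGM it called 8 lower and 1 higher, against 6.60% and 9.28%; of the 37 members at a level of at least 3 there, 4 were lower, against 7.99% of such genes. The SNGM count was 3 without the shallow combination replicate 2, 3 without paclitaxel replicate 2 and 26 without combination replicate 1, which leaves the shallow library alone; it was 6 without paclitaxel replicate 1. In HEC265 it called 16 lower and 2 higher, against 6.53% and 8.39%; of the 39 members at a level of at least 3, 13 were lower, against 9.67%. The HEC265 count was 9 without combination replicate 2 and 10 without paclitaxel replicate 1, and 11 and 14 without the others. SM08502 against vehicle lowered 17 members in Ishikawa (8.68% of tested genes), 4 in SNGM (4.06%) and 14 in HEC265 (5.39%), and raised 0 (6.5%), 1 (3.8%) and 3 (9.27%). The Ishikawa figure was 5 without SM08502 replicate 2 and 8 without vehicle replicate 2, the SNGM figure was 2 without vehicle replicate 1 and without either SM08502 replicate, and the HEC265 figure was 9 without vehicle replicate 2 or SM08502 replicate 1.

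The genes of the extracellular matrix formed a large group, with 16 members, 8 of them collagens. The table lists 44 collagen genes, of which 39 were tested, while 90 of all 17011 tested genes were members. On vehicle, whose values chose the list, none was lower in Ishikawa-S33Y by 2.5 or more from an Ishikawa level of at least 3. The genes of other kinds that met this mirrored condition were not counted. The grouping of collagens was made after the names were known, and whether they differed from other genes was not tested. COL6A1 and COL6A2 encode chains of collagen VI, the beaded filament around cells, and lie 93.1 kb apart on chromosome 21. With paclitaxel COL6A1 had 131 and 46.6 CPM in Ishikawa and 1144 and 1153 CPM in Ishikawa-S33Y, a difference of 3.86 ± 0.40 (SE; limma, adjusted p = 1.25e-07). COL1A1, a chain of the fibrillar collagen I, had 189 and 64.8 CPM against 1050 and 1100 CPM, a difference of 3.27 ± 0.37. Ishikawa-S33Y stood far above both Ishikawa libraries, and the 2 Ishikawa libraries stood apart from each other.

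These collagens were not a feature of the other mutated lines. COL1A1 had 1.53 and 1.88 CPM in SNGM and 6.32 and 6.33 CPM in HEC265 on vehicle, below Ishikawa with 109 and 158 CPM. COL6A2 had 1.12 and 1.90 CPM in SNGM and 0.0445 and 0 CPM in HEC265, against 249 and 245 CPM in Ishikawa-S33Y. COL18A1, the collagen of basement membranes from which endostatin is cut, differed from that pattern, with 213 and 245 CPM in SNGM and 196 and 191 CPM in HEC265.

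SM08502 lowered 8 of the 16 matrix genes in Ishikawa-S33Y between paclitaxel and the combination, 1 of them a collagen, COL26A1 (-1.12 ± 0.24). This count and those of the other roles below stand against 50 of all 90 members and 17.4% of tested genes. Whether a role differed from the other members was not tested. The other 7 collagens had changes between -0.86 and -0.26 that missed the threshold. COL18A1 passed it with median re-centring, with quantile normalization and in 4 other alternatives. When Ishikawa-S33Y alone set the spread, COL1A1 (-0.60, adjusted p = 0.000326) and COL6A1 (-0.26, adjusted p = 0.0385) were called lower as well. With the length score as a covariate, 6 of the 8 collagens had a change below 0. COL6A1 had 1003 and 914 CPM with the combination, a change of -0.26 ± 0.40 that became 0.17 with the length score as a covariate. LOXL4, a lysyl oxidase that cross-links collagen and elastin, went from 57.9 and 57.5 to 10.5 and 11 CPM. That fall of 2.32 ± 0.20 on the log2 scale (SE; limma, adjusted p = 3.53e-08) was the largest among the 90 members in this comparison. CILP, a cartilage matrix protein, went from 83.3 and 79.8 to 25.1 and 20.4 CPM (-1.81 ± 0.23). LAMA3, the laminin chain of epithelial basement membranes, went from 697 and 713 to 247 and 317 CPM, a change of -1.33 ± 0.26. SULF2, which removes sulfate groups from heparan sulfate, went from 46 and 48 to 13.6 and 19.1 CPM in Ishikawa-S33Y and from 146 and 131 to 50 and 34.8 CPM in HEC265 (-1.71 ± 0.31; limma, adjusted p = 0.000665). HMCN1, hemicentin, fell by 0.83 ± 0.25 (adjusted p = 0.0126), a call lost without either paclitaxel replicate or without combination replicate 1 (adjusted p 0.0504 to 0.0891). In SNGM HMCN1 was called higher with the combination (0.79 ± 0.25, limma, adjusted p = 0.0377), with 6.84 CPM in the shallow library.

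The 8 secreted signals included 2 of the Wnt pathway, and 3 of the 8 fell with the combination. WNT2B, a Wnt ligand, had 2.92 and 1.95 CPM in Ishikawa and 33 and 32.5 CPM in Ishikawa-S33Y with paclitaxel (3.31 ± 0.45). With the combination it had 12.1 and 18.7 CPM, a change of -1.07 ± 0.45 (limma, adjusted p = 0.0674), which passed the threshold with median re-centring (adjusted p = 0.0499), with quantile normalization (adjusted p = 0.0156) and without the 2 shallow libraries (-1.36, adjusted p = 0.000127). Reads of WNT2B may include those of the overlapping gene ST7L. SFRP5, a secreted Wnt antagonist just above the level threshold, went from 6.65 and 7.53 to 1.80 and 0.334 CPM (-2.06 ± 0.23, adjusted p = 7.01e-07). The value of 0.334 CPM comes from the shallow library, where 3 reads are 1.00 CPM. GDF10, a TGF-beta family ligand, fell by 1.68 ± 0.18 and ANGPTL1, an angiopoietin-like protein, by 0.93 ± 0.29. BMP4, its antagonist NOG and IGFBP7 held nearly the same CPM with paclitaxel and the combination. For BMP4 these were 24.6 and 25.7 against 26.2 and 26.1 CPM, for NOG 67 and 63.5 against 70.2 and 77.2 CPM. IGFBP7 had 73 and 73.3 against 73.7 and 72.2 CPM, a difference of -0.0038 ± 0.16.

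Among the 17 surface receptors and membrane proteins, 8 fell with the combination and GFRA1 rose. GFRA1, the co-receptor for the growth factor GDNF, had 0.584 and 0.418 CPM in Ishikawa and 20.6 and 20.5 CPM in Ishikawa-S33Y with paclitaxel, and was at most 0.356 CPM in every SNGM and HEC265 library. With the combination it had 36.6 and 42.1 CPM in Ishikawa-S33Y, a change of 0.90 ± 0.13 (limma, adjusted p = 1.57e-05; 0.0624 with a pseudocount of 0.1), and with SM08502 alone 37.3 and 36.5 CPM. All 4 libraries given SM08502 lay above all 4 without it. TSPAN9, a tetraspanin, showed the opposite, with 293 and 298 CPM on paclitaxel and 88.9 and 80.9 CPM with the combination (-1.79 ± 0.16). EPHA3, an ephrin receptor, fell by 1.13 ± 0.19 and ITGA1, the collagen-binding integrin chain, by 0.87 ± 0.15. ITGA1 also fell by 1.02 ± 0.15 in SNGM (limma, adjusted p = 0.000157, and 0.0818 when only the compared line sets the spread) and by 0.91 ± 0.15 in HEC265.

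SCARA3, a scavenger receptor, differed between the lines. With paclitaxel, then the combination, it had 40.5 and 39.4, then 32.7 and 35.8 CPM in Ishikawa-S33Y. In HEC265 it had 212 and 199, then 102 and 91 CPM (-1.08 ± 0.16). It was at most 0.436 CPM in every SNGM library. ERBB4, a receptor tyrosine kinase for neuregulins, had 53.3 and 53.8, then 51.6 and 58.5 CPM in Ishikawa-S33Y and at most 0.446 CPM in SNGM and HEC265. GPRC5C, an orphan G protein-coupled receptor, fell by 0.81 ± 0.13 in Ishikawa-S33Y and was called higher in HEC265 (0.40 ± 0.13, adjusted p = 0.0457), a call lost in 7 alternatives, among them median re-centring and quantile normalization.

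The 13 genes of channels, transport and neurotransmission include several that are best known from neurons. 9 of them fell in Ishikawa-S33Y with the combination. NOS1 went from 60.9 and 62.8 CPM on paclitaxel to 20.2 and 23.7 CPM, a change of -1.46 ± 0.26 (limma, adjusted p = 0.000137), and was at most 3.49 CPM in every library of the other 3 lines. PPP1R1B, the dopamine-regulated phosphatase inhibitor DARPP-32, went from 17.7 and 19.3 to 3.49 and 4.35 CPM (-1.99 ± 0.18). FGF11, an intracellular fibroblast growth factor homologue that binds sodium channels, went from 27.1 and 24.8 to 5.24 and 6.69 CPM (-1.96 ± 0.26). SLC16A3, the lactate exporter MCT4 whose window is printed above, went from 75.1 and 72.5 to 24.3 and 21.1 CPM (-1.66 ± 0.13). In HEC265 it was about the same with and without the drug, at 55.5 and 53.7 against 54.1 and 59.6 CPM. KCNJ16, an inward rectifier potassium channel, fell by 1.00 ± 0.18 and had 103 and 90.2 CPM in SNGM on vehicle, above the 18.6 and 18.7 CPM of Ishikawa-S33Y. SLC18A3, the vesicular acetylcholine transporter, lies within the locus of CHAT and had 12.8 and 11.9, then 10 and 9.36 CPM, a change of -0.32 ± 0.17 that missed the threshold. XKR4, at the edge of the list, had a change of -0.59 ± 0.25 (adjusted p = 0.0713), called without the 2 shallow libraries (-0.89, adjusted p = 0.00662) and without combination replicate 2 alone (adjusted p = 0.0254).

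The 7 genes grouped by hand as metabolic enzymes include KLK1, a protease, and CYGB, a globin. All 7 fell in Ishikawa-S33Y with the combination, against 50 of all 90 members and 17.4% of tested genes. Without the 2 shallow libraries 6 of the 7 were called lower. SM08502 alone lowered 6 of the 7, against 41 of the 90 and 10.6%. SCD, the desaturase that makes oleic acid, had 155 and 107 CPM in Ishikawa and 892 and 895 CPM in Ishikawa-S33Y with paclitaxel, and 430 and 403 CPM with the combination (-1.10 ± 0.15, adjusted p = 6.20e-06). In HEC265 it went from 233 and 218 to 79.7 and 63.6 CPM (-1.65 ± 0.15). MGAT3 went from 34.3 and 35.1 to 11.4 and 6.35 CPM in Ishikawa-S33Y (-1.90 ± 0.30); its reads may include those of MGAT3-AS1. ALDOC, a brain-enriched aldolase of glycolysis, fell by 1.41 ± 0.17 and CYP26B1, which degrades retinoic acid, by 1.31 ± 0.19. CYGB, cytoglobin, fell by 1.22 ± 0.14 and AK4, a mitochondrial adenylate kinase, by 0.93 ± 0.14. AK4 moved the other way in HEC265, from 1.36 and 1.85 to 3.86 and 5.83 CPM (1.15 ± 0.14, adjusted p = 1.20e-05). KLK1, tissue kallikrein, fell by 0.54 ± 0.19 (adjusted p = 0.0292), a call lost in 6 alternatives, among them without the 2 shallow libraries (-0.36, adjusted p = 0.175) and without combination replicate 2 alone (adjusted p = 0.24).

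Of the 8 nuclear proteins, 4 fell and HOXC10 rose. MYCN, a transcription factor of the MYC family, had 2.14 and 0.767 CPM in Ishikawa and 24.8 and 24.7 CPM in Ishikawa-S33Y with paclitaxel, and 7.24 and 6.35 CPM with the combination (-1.73 ± 0.19, adjusted p = 7.82e-07). No read of it was counted in HEC265. EYA2, a phosphatase and transcription cofactor, fell by 1.23 ± 0.19 and BHLHE41, a repressor of the clock, by 1.04 ± 0.31. HOXC10, a homeobox factor of the posterior body axis, went from 27.1 and 26.1 to 42.9 and 42.8 CPM (0.67 ± 0.24, adjusted p = 0.0306), a call lost without any 1 of the 4 libraries compared (adjusted p 0.0871 to 0.12). In HEC265 it had 28.8 and 28.7 CPM on vehicle, close to the 27.5 and 27.6 CPM of Ishikawa-S33Y. MKI67, the proliferation marker Ki-67, had 276 and 53.2 CPM in the paclitaxel libraries of Ishikawa and 592 and 605 CPM in Ishikawa-S33Y. It had 880 and 791 CPM with the combination, a difference of 0.48 ± 0.40 (adjusted p = 0.366), and 0.91 with the length score as a covariate (adjusted p = 0.000255). When Ishikawa-S33Y alone set the spread, MKI67 was called higher (0.48, limma, adjusted p = 0.000938).

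ZNF354B, annotated as a zinc finger gene, behaved unlike the rest. It had 291 and 119 CPM in Ishikawa and 1061 and 2057 CPM in Ishikawa-S33Y on vehicle, so the replicates of each line stood far apart. A U1 small nuclear RNA pseudogene, RNU1-39P, lies inside its annotated span, and the reads of the 2 cannot be separated here. Its change with the combination, -0.11 ± 0.41, became 0.09 without combination replicate 2 and 0.0079 without paclitaxel replicate 2.

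**Figure D5:**
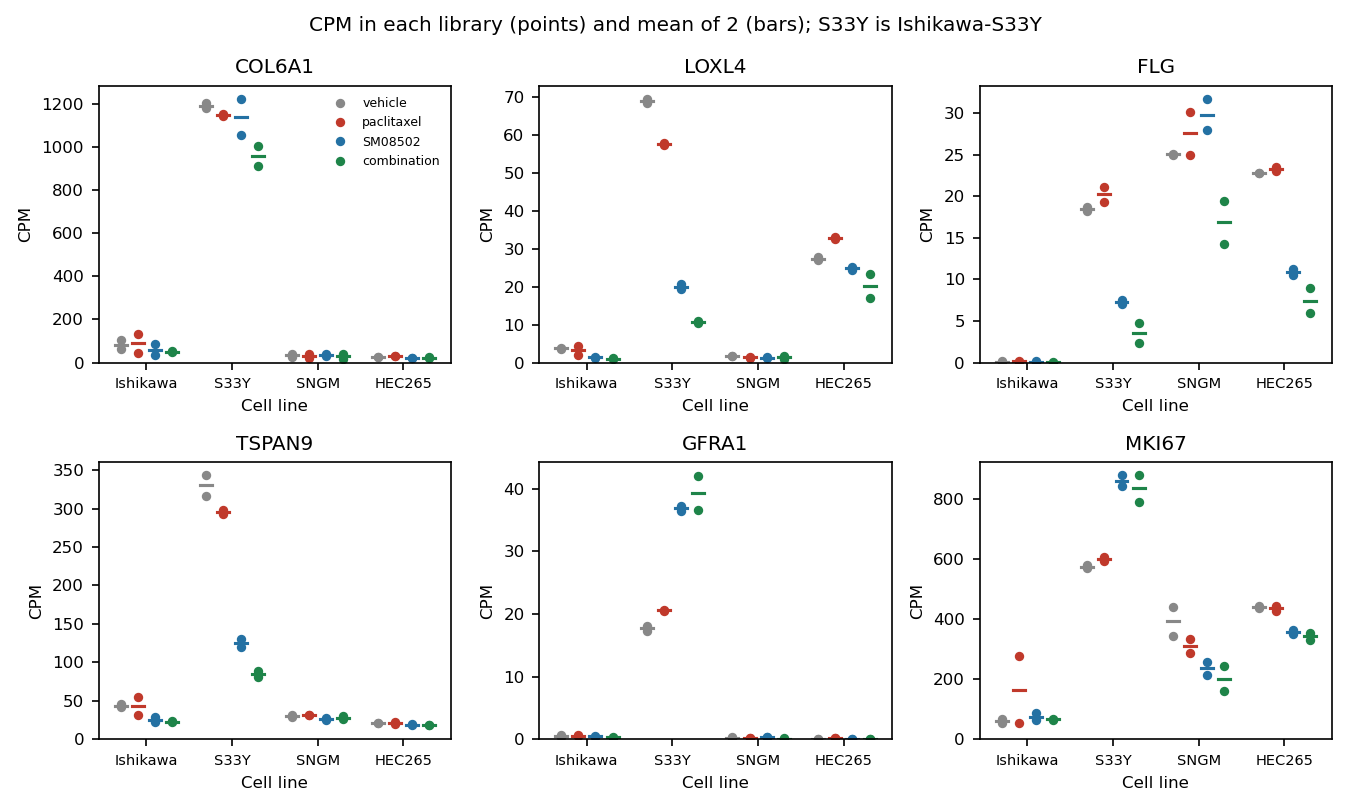
CPM of 6 members in each of the 32 libraries (points), with the mean of each group of 2 (bars), by line and treatment; each vertical axis starts at 0. LOXL4, FLG and TSPAN9 go down in Ishikawa-S33Y with SM08502, GFRA1 goes up from about 20 to about 40 CPM, COL6A1 has 1003 and 914 CPM with the combination against 1144 and 1153 CPM with paclitaxel, and MKI67 is uneven in the 2 Ishikawa paclitaxel libraries.

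Of the 9 cytoskeletal and scaffold proteins, 4 fell. FLG, filaggrin, an epidermal protein that bundles keratin, had 0.13 and 0.139 CPM in Ishikawa and 19.3 and 21.1 CPM in Ishikawa-S33Y with paclitaxel (4.22 ± 0.20). It also had 30.2 and 25 CPM in SNGM and 23 and 23.5 CPM in HEC265, so that all 3 mutated lines stood above Ishikawa. With the combination it had 4.78 and 2.34 CPM in Ishikawa-S33Y (-2.27 ± 0.20, adjusted p = 5.13e-08), 19.5 and 14.3 CPM in SNGM (-0.68 ± 0.20, adjusted p = 0.0242) and 8.95 and 5.97 CPM in HEC265 (-1.54 ± 0.20). DPYSL4, a collapsin response mediator of axon growth, went from 56.9 and 55.1 to 12.5 and 10.7 CPM in Ishikawa-S33Y (-2.18 ± 0.27) and was at most 0.676 CPM in SNGM and HEC265. SYNPO, synaptopodin, an actin-binding protein, fell by 1.75 ± 0.33. AHNAK and AHNAK2, giant scaffold proteins, had changes of -0.45 ± 0.32 and -0.80 ± 0.33 that missed the threshold, AHNAK2 passing it with median re-centring, quantile normalization and 2 other alternatives. AHNAK had 200 and 67.1 CPM in Ishikawa, 747 and 818 CPM in Ishikawa-S33Y and 3830 and 3824 CPM in SNGM with paclitaxel.

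The remaining 12 members were kinases, adaptors and proteins of other kinds. NIM1K, a kinase related to AMPK, went from 8.68 and 8.15 to 2.57 and 1.67 CPM in Ishikawa-S33Y (-1.61 ± 0.21) and PRKCA, protein kinase C alpha, from 74.8 and 72.9 to 39.5 and 48.8 CPM (-0.74 ± 0.22). PRKAA2, the catalytic AMPK subunit alpha-2, had a change of -0.34 ± 0.17 (adjusted p = 0.117), and SHE, an SH2 adaptor, had 18.2 and 17.4, then 19.4 and 19.1 CPM. AC007325.2, named only by its clone, went from 11.3 and 11.7 to 1.54 and 2.01 CPM (-2.18 ± 0.18, adjusted p = 2.63e-08). It was higher in SNGM on vehicle, at 21.9 and 22.6 CPM. NDRG1, a stress-responsive protein, fell by 1.07 ± 0.23, while S100A1, a calcium-binding protein, had a change of -0.31 ± 0.27.

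The change on top of paclitaxel was set against HEC265 in 1 model, at 85 nM in Ishikawa-S33Y and 149 nM in HEC265. Limma called 25 members with a lower and 3 with a higher change in Ishikawa-S33Y, against 6.45% and 5.94% of tested genes. Many of these members were near 0 in HEC265 and could hardly fall there. Among the 39 members with a level of at least 3 in both lines, 9 had a lower and 2 a higher change, against 6.94% and 6.48% of such genes. SLC16A3 (-1.72 ± 0.18, adjusted p = 5.80e-06), NDRG1 (-1.59 ± 0.33) and CYGB (-1.63 ± 0.20) were among the 9, and SCARA3 (0.86 ± 0.23, adjusted p = 0.0152) was 1 of the 2. The SCARA3 call was lost in 5 alternatives.

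Known targets of Wnt and beta-catenin were followed as a list. Of 30 such genes, 28 were tested and 1, BMP4, was a member. With paclitaxel, 12 were higher and 6 lower in Ishikawa-S33Y than in Ishikawa, against 20.5% and 27.1% of tested genes, with a median difference of 0.32. AXIN2, a feedback inhibitor of the pathway, had 6.99 ± 2.60 CPM (SD, n = 2) in Ishikawa and 22.1 ± 1.45 CPM in Ishikawa-S33Y, a difference of 1.57. LGR5, a receptor for R-spondins, was lower, at 32.9 ± 10.0 and 1.33 ± 0.057 CPM. CTNNB1 had 288 ± 41.1 CPM in Ishikawa and 208 ± 3.99 CPM in Ishikawa-S33Y (-0.46). Of 12 tested genes of nitric oxide and N-glycan branching, chosen around NOS1 and MGAT3, 1 was higher and 5 were lower, with a median of -0.21. Between paclitaxel and the combination, 3 of the 28 Wnt targets rose and 6 fell in Ishikawa-S33Y, where 22.1% of tested genes were higher and 17.4% lower.

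The members lay on most chromosomes, but unevenly. Of the 89 found in the RefSeq table, 11 lie on chromosome 10 and 11 on chromosome 17. These hold 652 and 959 of the 16183 tested genes that were found. Chromosome 6, with 871 tested genes, holds no member. The unevenness was not tested. LOXL4 and SFRP5 are 476 kb apart on chromosome 10, COL6A1 and COL18A1 468 kb apart on chromosome 21, and EYA2 and SULF2 469 kb apart on chromosome 20. The median annotated span was 44.4 kb for members and 29.2 kb for tested genes. 60 of the 89 overlap another annotated gene, and the strand of counting is not given in the sources used here, so that reads of HOXC10, MYCN and S100A1 may include those of HOXC-AS3, MYCNOS and S100A13.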

How the data were processed

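The authors deposited 1 table, the log10 of counts per 1000000 reads (CPM) plus 1 for 35238 genes in 32 libraries; the file headers say log CPM, and the base and the added 1 were read from the values, since back-transformed CPM sums to 1000000 per library. 100% of these CPM values are whole multiples of 1 read (tolerance 0.01 read), which gave the depths. The submitters' processing notes name bcl2fastq, kallisto, STAR and GRCh38 without their role. Every column matched 1 sample. The members, roles and gene lists were chosen with earlier results of these data known.

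Levels were analysed as log2(CPM + 1) with limma 3.58.1 in R 4.3.3 on the 17011 genes that exceeded 1 CPM in 2 or more libraries. The model had 1 mean per group over all 32 libraries and empirical Bayes with a trend (16 residual and 4.90 prior degrees of freedom). Tests were two-sided, adjusted by Benjamini-Hochberg over all tested genes and called at an adjusted p under 0.05. This scale understates changes of low genes. An error after ± is the standard error of the fit unless SD is named. The fit was also run on simulated counts that had the same spread in every group. In the data the spread was unequal. The root mean square difference between replicates over the members was 0.082 in Ishikawa-S33Y and 0.965 in Ishikawa with paclitaxel. The simulation therefore does not bear on calls under unequal spread.

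Members named singly are the 8 largest vehicle differences, the 10 highest Ishikawa-S33Y levels, 3 inside and 3 outside each threshold, the 3 highest in SNGM and HEC265, the 6 largest called falls and rises with the combination (2 in SNGM and HEC265), the 3 largest interactions each way and 1 to 5 more per role. Alternatives were another pseudocount, other filters and scalings, no trend, the compared lines only, a replicate block, a length score covariate and leaving out libraries. A few genes are counted but not reported here by name.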

Additional observations from a re-analysis of the deposited data

Results flagged for a closer look

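For 27 members, the effect of SM08502 on top of paclitaxel differed between Ishikawa-S33Y and HEC265 by the limma test of that difference (2 libraries per group, adjusted p from 2.83e-06 to 0.0350). The values below are differences on the log2(CPM + 1) scale, Ishikawa-S33Y minus HEC265, and the doses were not the same.

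For 13 genes the HEC265 level with paclitaxel was below 1, so a fall could hardly be seen there. The difference was -2.22 for the Wnt antagonist SFRP5 and -1.68 for the TGF-beta family ligand GDF10. SFRP5 had fewer than 3 reads in the shallow Ishikawa-S33Y combination library. The difference was -2.18 for DPYSL4, -2.08 for PPP1R1B, -1.84 for MGAT3, -1.74 for NOS1 and -1.73 for the transcription factor MYCN. It was -1.31 for NIM1K, -1.29 for PIANP, -1.19 for the ephrin receptor EPHA3, -1.01 for SLC8A3 and -0.87 for EYA2, and 1.08 for GFRA1.

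The other 14 were above 1 in both lines with paclitaxel. The SM08502 effect was lower in Ishikawa-S33Y for FGF11 (-2.15), AK4 (-2.08), the lactate transporter SLC16A3 (-1.72), ALDOC (-1.68), TSPAN9 (-1.66), LOXL4 (-1.63) and CYGB (-1.63). It was also lower for SYNPO (-1.59), NDRG1 (-1.59), LAMA3 (-1.55), CYP26B1 (-1.44), AC007325.2 (-1.35) and GPRC5C (-1.21). It was higher for the scavenger receptor SCARA3 (0.86), which fell with the combination in HEC265.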

How the results depend on the processing

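Count-based models on the recovered whole reads, planned as alternatives, were fitted and then left out after their values had been seen, because such models are used here only on values deposited as counts or CPM and these were deposited as log10. They called more members lower with the combination than limma did in all 4 lines, did not call KLK1 there in Ishikawa-S33Y, and called fewer members with a lower change in Ishikawa-S33Y than in HEC265. Across the other alternatives, the call that all 90 members were higher in Ishikawa-S33Y than in Ishikawa gave 87 to 90 without 1 library with the combination, 89 to 90 with paclitaxel and 88 to 90 with SM08502. The members higher than in Ishikawa numbered 27 to 36 in SNGM and 33 to 38 in HEC265 without 1 library. Paclitaxel against vehicle gave 0 to 0. A threshold of 2 or 3 on the difference gives 214 or 34 members, and leaving out 1 library gives 79 to 110.

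For the combination against paclitaxel, members lower without 1 library numbered 40 to 47 (Ishikawa-S33Y), 2 to 52 (Ishikawa), 3 to 26 (SNGM) and 9 to 14 (HEC265), and members higher 1 to 2, 0 to 2, 0 to 8 and 1 to 2. For SM08502 against vehicle, members lower numbered 25 to 33, 5 to 25, 2 to 3 and 9 to 10, and members higher 1 to 1, 0 to 1, 0 to 1 and 1 to 3. The interaction gave 24 to 29.

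A filter at a mean of 2 kept 63 of the 90 members and 12118 genes. Of these 63, 33 were lower and 1 higher in Ishikawa-S33Y with the combination, where 2500 and 2990 genes were. SM08502 gave 27 and 0, where 1570 and 2682 genes were lower and higher, and the interaction count was 16. A pseudocount of 0.1 gave 0 higher with the combination in Ishikawa-S33Y and in Ishikawa, and 25 lower with SM08502 in Ishikawa-S33Y. No filter gave 1 higher in Ishikawa-S33Y and in HEC265 and 0 in SNGM with the combination. With the spread taken from the compared line, the combination lowered 0 members in Ishikawa, 1 in SNGM and 35 in HEC265 and raised 0, 0 and 8. In Ishikawa-S33Y it lowered 70 and raised 3. SM08502 lowered 0 in Ishikawa, 1 in SNGM, 33 in HEC265 and 61 in Ishikawa-S33Y. It raised 3 in Ishikawa-S33Y, 0 for SNGM and 7 for HEC265, and the interaction count was 53. The length score covariate gave 4 higher in Ishikawa-S33Y and 20 lower and 2 higher in SNGM with the combination. With SM08502 it gave 3 higher in Ishikawa-S33Y, 1 in Ishikawa, 12 lower and 2 higher in SNGM and 5 higher in HEC265. Median re-centring and quantile normalization gave 14 and 13 lower in SNGM and 1 and 1 higher in HEC265 with the combination. Quantile normalization gave 0 higher there in SNGM and 1 higher with SM08502 in HEC265; re-centring, like no trend, gave 1 higher with SM08502 in Ishikawa. Without the 2 shallow libraries the combination gave 1 higher in Ishikawa-S33Y, 23 lower in Ishikawa and 3 lower and 0 higher in SNGM, and SM08502 1 higher in Ishikawa. The cause was not tested.

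The change of COL6A1 with the combination in Ishikawa-S33Y turned to 0.17 with the length score. That of ZNF354B turned to 0.090 without the 2 shallow libraries, and without 1 library it ran from -0.32 to 0.0903, above 0 without combination replicate 2 (0.0903) or paclitaxel replicate 2 (0.0079).

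Replicate numbers did not pair the samples. Correlations of same-numbered deviations ran from -0.54 to 0.85 in Ishikawa, -0.06 to 0.13 in Ishikawa-S33Y, -0.59 to 0.78 in SNGM and -0.12 to 0.26 in HEC265. With the replicate number as a block, 53 members were lower with the combination in Ishikawa-S33Y and 1 was higher in HEC265. COL18A1 passed in Ishikawa-S33Y (adjusted p = 0.0411) and GPRC5C missed the threshold in HEC265 (adjusted p = 0.0679).

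Scaling moved the split of all called genes. Between SM08502 and vehicle in Ishikawa-S33Y, 3146 were higher and 1800 lower, against 2790 and 2525 with quantile normalization. In HEC265 the combination gave 1428 and 1110, against 1064 and 1402 with re-centring and 1086 and 1280 with quantile normalization. SM08502 gave 1577 and 917 there, against 873 and 1346 and 1005 and 1112. In Ishikawa it gave 1105 and 1477, against 1518 and 1329 with re-centring. HEC265 against Ishikawa gave 4529 and 6486 with paclitaxel, against 5940 and 5278 with quantile normalization.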
